A study of Mus musculus with 2 samples.

Results

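The genes described here are 39 members of the endoplasmic reticulum (ER) folding and stress machinery, chosen by gene symbol from the 27998 genes of the deposited tables, and all 39 were found there. They comprise 11 chaperones and cochaperones, 6 genes of disulfide formation, 6 of translocation into the ER, 9 of ER-associated degradation (ERAD), and 7 stress sensors and transcription factors. They were read in pancreatic islet cells of C57BL/6N mice in 2 libraries, 1 from wild-type (WT) mice and 1 from mice homozygous for a knockout of the ghrelin gene (GKO). Ghrelin is a peptide hormone made mainly in the stomach and by a few islet cells. Each library was made from the pooled islets of 4 standard chow-fed littermates at 8 weeks of age, dispersed to single cells and sorted as live cells before capture. With 1 pool per genotype there is no replicate, so no difference between genotypes was tested. A difference between the pools in mice, islet preparation, sorting or cell survival cannot be told apart from a difference between the genotypes. The paper reports that more GKO than WT cells were sorted but fewer live GKO cells were recovered. It raises a possible fragility of GKO β cells in handling and cautions that its β cell data describe the cells that survived sorting.

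Insulin is made as a precursor that enters the ER through the Sec61 channel, folds with the help of chaperones, and gains its disulfide bonds from protein disulfide isomerases that are reoxidized by Ero1 enzymes. Chains that fail to fold are returned to the cytosol and destroyed by ERAD. When unfolded chains accumulate, the sensors IRE1α (Ern1), ATF6 and PERK (Eif2ak3) start the unfolded protein response: XBP1 and ATF6 raise transcription of chaperone and ERAD genes, and PERK slows translation while ATF4 and CHOP (Ddit3) act on genes of amino acid supply and cell death.

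The WT library held 158067110 unique molecular identifiers (UMIs, each standing for a captured transcript) in 7792 barcodes, and the GKO library held 103511757 UMIs in 7289 barcodes. Dropping barcodes under 500 genes or over 10% mitochondrial UMIs left 7100 and 6346, and 18 barcode sequences occurred in both libraries. As a check of the labels, Ghrl was at 276 CPM (UMIs per 1e+06 UMIs) in WT and 2.71 CPM in GKO. Of these Ghrl UMIs, 6 WT barcodes held 42984 of the 43634 in WT, and 1 GKO barcode held 276 of the 280 in GKO. A barcode was placed by its leading hormone when that hormone made up at least 10% of its UMIs. This gave 2265 WT and 872 GKO insulin-led barcodes, 1048 and 1397 Gcg-led, 1414 and 1003 Sst-led, 717 and 669 Ppy-led, and 1656 and 2405 nonendocrine barcodes below 10%. Median depth in insulin-led barcodes was 37124 UMIs in WT and 35811 in GKO. In the other hormone classes it lay between 10148 and 21737 UMIs, and in nonendocrine barcodes it was 8567.5 and 8053. The classes carried the markers of their cell types. Ucn3 of mature β cells was at 396 and 390 CPM over non-hormone UMIs in insulin-led barcodes and below 5 elsewhere, Irx2 of α cells was highest in Gcg-led barcodes and Ghsr, the ghrelin receptor, in Sst-led barcodes. Pyy was highest in Ppy-led barcodes, and Mafa of β cells was low throughout, at 5.71 and 10.4 CPM in insulin-led barcodes. A second hormone reached 5% of UMIs in 9.49% of WT and 9.98% of GKO insulin-led barcodes, so that some barcodes may hold more than a single cell. Such barcodes were more frequent at low insulin shares, as given below. Intervals given below are 95% intervals for counting error only and do not cover differences between barcodes, mice or preparations.

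Many ER chaperone genes carry an ER stress element (ERSE) near their start, the sequence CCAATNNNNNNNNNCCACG, to which the factor NF-Y and, in stress, ATF6 or XBP1 can bind. RefSeq promoter windows of mouse build GRCm38.p6 (mm10), each from 250 bases before to 50 after the annotated start, were at hand for 33 of the 39 members. Searched on both strands, ERSE stood in the window of 10 of those 33 members and of 37 of all 27025 genes with a window (0.137%). The short form ERSE-II, ATTGG and CCACG with 1 free base between them, stood in 2 members, Dnajb11 and Herpud1, and in 12 of all genes (0.0444%), while TGACGTGG (UPRE, the XBP1 site) and TGATGNAAT (a site for ATF4 with C/EBP factors) stood in 0 of the 33 members and in 0.714% and 1.08% of all genes. A match is a description of the sequence, and the absence of a match says only that these letters are not in the window. The sites are shown for the members on which the results turn, 5′ to 3′ along the gene's strand, with the element in capitals. For elements that lie on the opposite strand the capitals read as the reverse complement.
Hspa5 (chr2:34772020-34772048, plus strand): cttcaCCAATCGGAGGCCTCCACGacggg
Hsp90b1, far element (chr10:86705633-86705661, minus strand): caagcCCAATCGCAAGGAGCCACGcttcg
Hsp90b1, near element (chr10:86705528-86705556, minus strand, element on the opposite strand): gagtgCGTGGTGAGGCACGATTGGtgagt
Creld2 (chr15:88819515-88819543, plus strand, element on the opposite strand): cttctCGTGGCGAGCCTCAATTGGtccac
Dnajc3 (chr14:118937822-118937850, plus strand): cacaaCCAATCAGCGCCAACCACGacccg
Pdia6 (chr12:17266486-17266514, plus strand): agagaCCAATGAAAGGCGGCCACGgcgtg
Ero1lb (chr13:12565677-12565705, plus strand, element on the opposite strand): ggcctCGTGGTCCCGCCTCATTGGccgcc
Derl3 (chr10:75893237-75893265, plus strand, element on the opposite strand): tctacCGTGGGACTTCCCCATTGGctagc
Syvn1 (chr19:6046527-6046555, plus strand): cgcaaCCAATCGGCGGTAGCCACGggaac
Herpud1, ERSE-II (chr8:94386372-94386392, plus strand): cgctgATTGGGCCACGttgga
The elements of these genes lay between positions -212 and -26 from the RefSeq start. In the GENCODE vM21 annotation the Hspa5 site fell inside an untranslated exon of Hspa5, whose start lies further out there, the Herpud1 site lay in an intron of the antisense gene Gm15890, and the other sites shown lay outside annotated genes. Calr and Canx also held an ERSE. Without its last base, the ERSE stood in 14 of the 33 members and in 0.429% of all genes. Pdia3, Pdia4, Derl2 and Herpud1 held this shorter form but not the full element. Sdf2l1 had a window with neither form, and Manf, Hyou1, Atf6, Derl1, Sec61a1 and Ssr2 had no window.

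**Figure D1:**
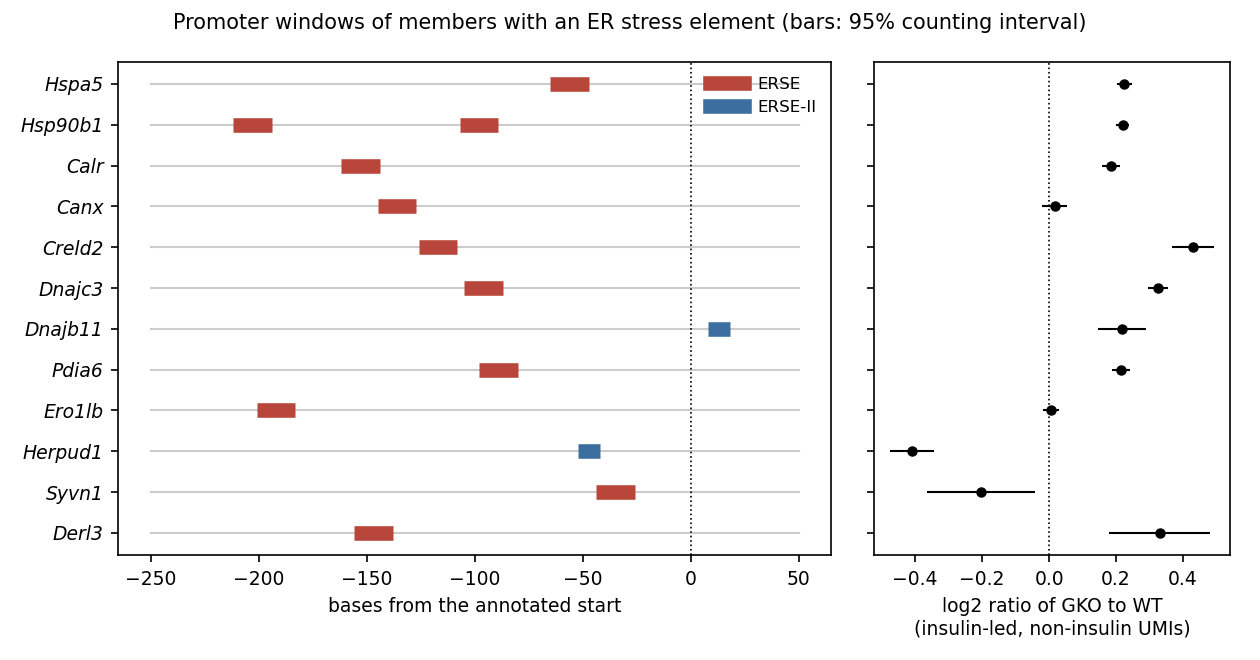
Positions of ERSE (red) and ERSE-II (blue) in the promoter windows of the 12 members that held one, in bases from the RefSeq start (left), and the log2 ratio of GKO to WT in insulin-led barcodes over non-insulin UMIs with its 95% counting interval (right). Members with an element ranged from Creld2 at 0.43 to Herpud1 at -0.41.

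In insulin-led barcodes 3 of the 11 chaperones were at least 1.2-fold higher in GKO than in WT over non-insulin UMIs (Creld2, Sdf2l1 and Dnajc3), and 9 of 11 over all UMIs. Insulin transcripts took 59.5% of the UMIs of these barcodes in WT and 57.4% in GKO, which moves every other gene upward in GKO when levels are taken over all UMIs, and the median of all genes then stood at a log2 ratio of 0.10. Levels of insulin-led barcodes are therefore given as CPM over non-insulin UMIs, on which the median of all genes was 0.02, unless stated otherwise. Summed over the 39 members, transcripts made up 1.81% of non-insulin UMIs in WT and 2.00% in GKO. A difference of 1.2-fold is used as a limit for description (0.263 on the log2 scale). At a mean of at least 10 CPM, 38 members were compared, and 5 of them (Creld2, Sdf2l1, Pdia4, Dnajc3 and Derl3) were at least 1.2-fold higher in GKO, beside 5.52% of all 8500 genes. At least 1.2-fold lower were 2 (Herpud1 and Ern1), beside 5.65% of all genes. Over all UMIs, 14 of 37 members were at least 1.2-fold higher, beside 10.3% of all 5564 genes, and the same 2 were lower, beside 3.16%. The counts of higher members thus depended on the scale, and Manf at 0.26 and Atf4 at -0.26 stood just short of the limit on the non-insulin scale. The median log2 ratio of the members was 0.11 on the non-insulin scale and 0.19 over all UMIs.

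Among the chaperones, Hspa5 encodes BiP, the main Hsp70 of the ER lumen, and stood at 1547 CPM in WT and 1808 CPM in GKO (a log2 ratio, GKO over WT, of 0.23 with an interval of 0.20 to 0.25). Hsp90b1, the ER form of Hsp90, stood at 1867 CPM in WT and 2174 CPM in GKO (0.22, interval 0.20 to 0.24). Both intervals lay above 0, and neither ratio reached 1.2-fold.
Hyou1 encodes a large Hsp70 that exchanges nucleotide on BiP, and was at 192 CPM in WT and 225 CPM in GKO (0.22). The J-domain proteins deliver clients to BiP. Dnajc3 was at 717 CPM in WT and 899 CPM in GKO (0.33, interval 0.29 to 0.36), Dnajb9 at 336 and 397 CPM (0.24), and Dnajb11 at 142 and 165 CPM (0.22). Of these, Dnajc3 was the member past 1.2-fold.
Sdf2l1, a partner of Dnajb11, was at 445 CPM in WT and 595 CPM in GKO (0.42, interval 0.38 to 0.46). Creld2, a stress-inducible ER protein, was at 164 CPM in WT and 221 CPM in GKO (0.43, interval 0.37 to 0.49), the largest ratio among the members of at least 10 CPM. Manf encodes a small ER protein that binds BiP and can be secreted, and was at 1089 CPM in WT and 1305 CPM in GKO (0.26, interval 0.24 to 0.29). The study names Manf and Dnajc3 from these same 2 libraries, so their values here are no independent observation.
The lectin chaperones that hold glycosylated chains differed from each other. Calr was at 1047 CPM in WT and 1191 CPM in GKO (0.19, interval 0.16 to 0.21), while Canx was at 533 and 539 CPM (0.02, interval -0.02 to 0.05). All 11 chaperones had a ratio above 0 on this scale, 8 of them short of 1.2-fold, and their median was 0.23, beside 0.02 for all genes. The share of all genes above 0 was not computed.

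Of the disulfide formation genes, Pdia4 was at 139 CPM in WT and 180 CPM in GKO (0.38, interval 0.31 to 0.45), and Pdia6, which also acts on IRE1α and insulin, at 1045 and 1213 CPM (0.22, interval 0.19 to 0.24). Pdia3, the isomerase that works with calreticulin and calnexin, was at 1102 and 1197 CPM (0.12, interval 0.09 to 0.15). P4hb, the classical protein disulfide isomerase, was at 512 CPM in WT and 515 CPM in GKO (0.01, interval -0.03 to 0.05). The oxidase Ero1lb, strongly expressed in islets, was at 1347 CPM in WT and 1354 CPM in GKO (0.01, interval -0.02 to 0.03), and its broadly expressed relative Ero1l was at 45.4 and 48.5 CPM (0.10). Of the 6 genes, Pdia4 alone passed 1.2-fold, Pdia3 and Pdia6 had intervals above 0 short of that limit, and the intervals of P4hb, Ero1lb and Ero1l held 0.

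Among the translocation genes, the Sec61 channel genes were near equal between libraries. Sec61b was at 1224 CPM in WT and 1228 CPM in GKO (0.00, interval -0.02 to 0.03), and Sec61a1, the pore subunit, at 257 and 247 CPM (-0.05). The Ssr genes encode the translocon-associated complex that helps some precursors enter. Ssr2 was at 438 CPM in WT and 516 CPM in GKO (0.24, interval 0.20 to 0.28), Ssr3 at 225 and 251 CPM (0.16), Ssr1 at 227 and 243 CPM (0.10), and Ssr4 at 1693 and 1773 CPM (0.07). All 4 Ssr genes had an interval above 0, and none passed 1.2-fold.

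The ERAD genes went apart. Herpud1, a stress-induced membrane protein of the degradation complex, was at 231 CPM in WT and 174 CPM in GKO (-0.41, interval -0.48 to -0.34), the largest ratio below 0 among the members of at least 10 CPM. Derl3, a member of the derlin family found in secretory cells, was at 30.8 CPM in WT and 38.8 CPM in GKO (0.33, interval 0.18 to 0.48), from 1112 and 542 UMIs, and after thinning each barcode to 5000 UMIs its log2 ratio was -0.08. Derl2 was at 129 and 150 CPM (0.22), and Derl1 at 133 and 130 CPM (-0.03).
Edem2, which trims mannose from misfolded glycoproteins, was at 159 CPM in WT and 181 CPM in GKO (0.19), and Os9, a lectin that reads the trimmed sugar, at 214 and 238 CPM (0.15). Edem1 was at 67.9 and 66.7 CPM (-0.03), and Sel1l, the scaffold of the complex, at 95.4 and 92.1 CPM (-0.05). Syvn1, its ubiquitin ligase, was at 34.6 CPM in WT and 30.1 CPM in GKO (-0.20, interval -0.37 to -0.04).

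Of the 6 sensors and transcription factors of at least 10 CPM, 0 were 1.2-fold higher in GKO, beside 5.52% of all genes, and 1 lower, beside 5.65%. In so few genes these counts do not set them apart from other genes. Ern1 was at 66.5 CPM in WT and 51.8 CPM in GKO (-0.36, interval -0.48 to -0.24). Atf4, the factor made when PERK slows translation, was at 225 and 187 CPM (-0.26, interval -0.33 to -0.20). Ddit3, the gene of CHOP, was at 43.3 and 38.6 CPM (-0.17, interval -0.31 to -0.03).
Xbp1, counted over spliced and unspliced forms alike, was at 263 CPM in WT and 276 CPM in GKO (0.07, interval 0.02 to 0.13), and Atf6 at 77.5 and 83.0 CPM (0.10). Eif2ak3 was at 21.2 and 19.5 CPM, with an interval from -0.33 to 0.08. Trib3, a target of ATF4 and CHOP, had 82 UMIs in WT and 27 in GKO, which was under the 10 CPM limit. Chaperone and sensor genes therefore did not differ in a single direction between the libraries, and the splicing of Xbp1 cannot be read from counts of transcript 3′ ends.

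**Figure D2:**
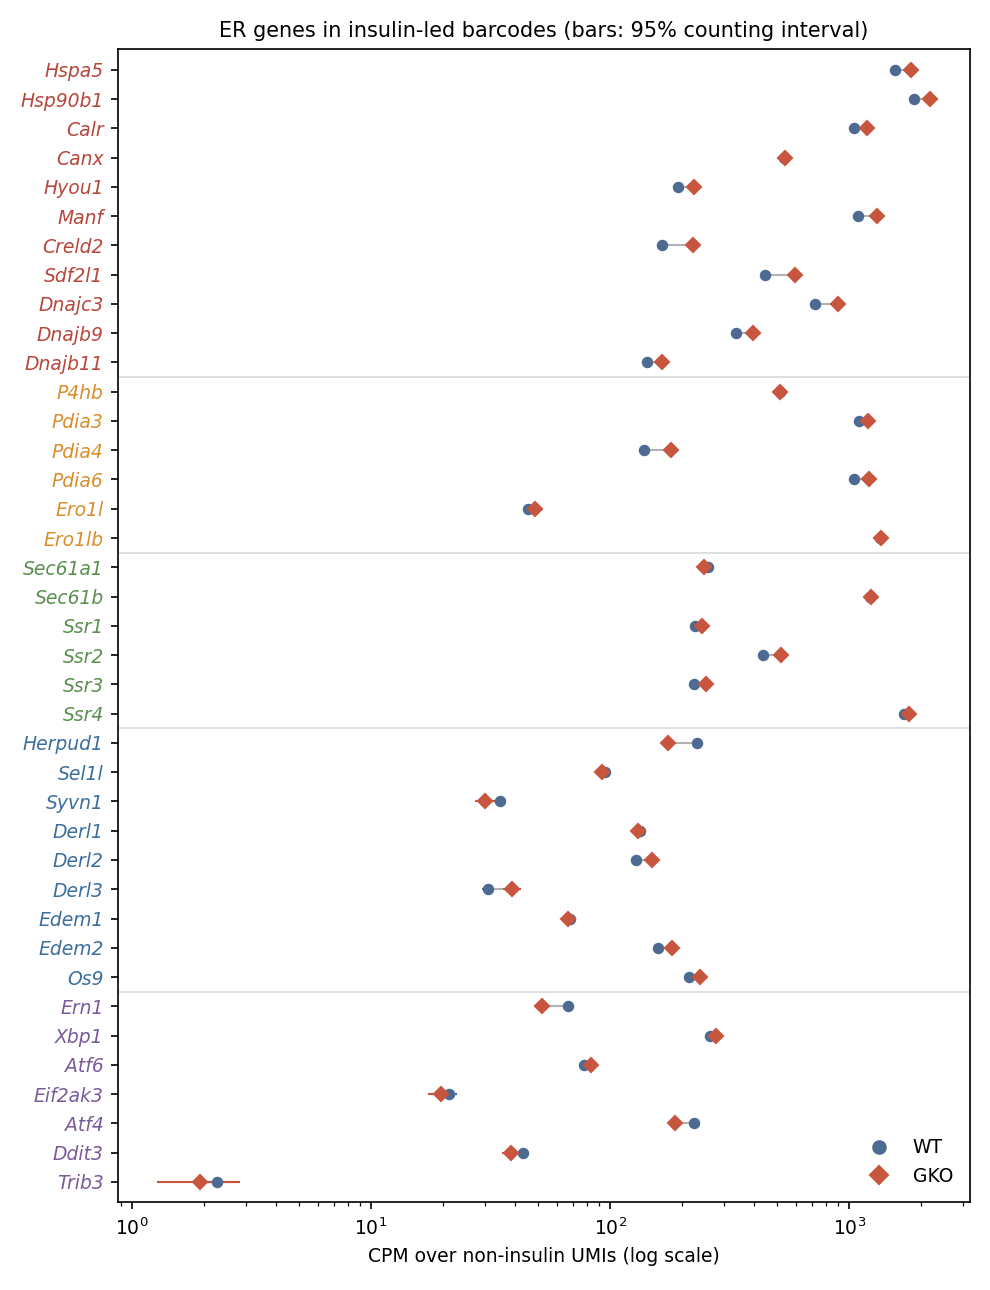
Level of each of the 39 members in insulin-led barcodes of WT (blue circles) and GKO (red diamonds), as CPM over non-insulin UMIs on a log axis, with 95% counting intervals and gene names colored by role. Among the chaperones at the top, Creld2 sits 0.43 to the right in GKO on the log2 scale and Canx 0.02, and Herpud1, Ern1 and Atf4 sit to the left.

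Among members with a promoter window, those with an ERSE had a median log2 ratio of 0.22 in insulin-led barcodes (10 members, from -0.20 for Syvn1 to 0.43 for Creld2), and those without had a median of 0.09 (22 members of at least 10 CPM, from -0.41 for Herpud1 to 0.42 for Sdf2l1). Of the 10 with an ERSE, 3 were at least 1.2-fold higher, and of the 22 without, 2, beside 5.52% of all genes. The ranges overlapped over most of their length, and Canx and Ero1lb held the element with ratios of 0.02 and 0.01. The split turns on the full element. Those without it include Pdia3, Pdia4, Derl2 and Herpud1, which lack only its last base, and Dnajb11 and Herpud1, which hold an ERSE-II. The sets also differ in role, and the sensors and transcription factors with a window all stand without the ERSE. Chaperones with the element ran from 0.02 for Canx to 0.43 for Creld2. Chaperones with a window but no ERSE were Sdf2l1 (0.42), Dnajb9 (0.24) and Dnajb11 (0.22). The part of role in the split was not tested.

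Other ER genes that are no members were read from lists fixed by name. Of all 8500 genes on this scale 5.52% were at least 1.2-fold higher and 5.65% lower. In lists this short, counts of 0 to 2 do not set a list apart from other genes. Of 19 further folding enzymes of at least 10 CPM, 2 were at least 1.2-fold higher over non-insulin UMIs and 0 lower (median 0.12). These were Fkbp11, at 383 CPM in WT and 491 CPM in GKO (0.36), and Ppib, a prolyl isomerase at 236 and 302 CPM (0.35). The lowest of that list were Txndc12 (-0.07) and Sil1 (-0.01). Of 17 genes of targeting and translocation, 2 were higher and 2 lower (median 0.11). Srpr (0.31) and Srp9 (0.27), which bring ribosomes to the membrane, lay at the upper end, and Sec61g (-0.42) and Sec62 (-0.28) at the lower end. Of 16 N-glycosylation genes 0 were higher and 1 lower (median 0.05), with Ostc (0.22) and Rpn1 (0.19) at the top and Tmem258 (-0.40) and Stt3a (-0.07) at the bottom. Of 16 other ERAD genes 1 was higher and 0 lower (median 0.10), with Rnf5 (0.33) and Erlec1 (0.23) highest and Ube2g2 (-0.19) and Nploc4 (-0.18) lowest.
Of 16 targets of PERK and ATF4, 2 were higher and 2 lower (median -0.04). The stress gene Nupr1 was at 85.5 CPM in WT and 41.5 CPM in GKO (-1.04, interval -1.17 to -0.91), and Vldlr was at -0.34, while Cebpb (0.48) and Ddit4 (0.28) were the highest. Of 10 other ER transcription and control genes 1 was higher and 0 lower (median 0.01), with Atf6b (0.28) and Creb3l2 (0.16) highest and Bhlha15 (-0.24) and Yipf5 (-0.11) lowest. Of 10 genes linked to tissue dissociation and heat shock, 0 were higher, beside 5.52% of all genes, and 3 lower, beside 5.65%. All 10 had a ratio below 0 (median -0.21, beside 0.02 for all genes). Hsph1 was lowest at -0.47 and Fosb at -0.32, and Junb (-0.06) and Hspa1a (-0.04) were nearest to 0. In insulin-led barcodes their levels thus differed in the opposite direction to the chaperones. Over all UMIs the median of this list was -0.13 in insulin-led, 0.19 in Gcg-led, -0.25 in Sst-led, 0.02 in Ppy-led and 0.13 in nonendocrine barcodes. The part of these genes in the results was not tested.

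The genotype difference was also read within ranges of insulin share, since a barcode with more insulin held more ER transcripts in both libraries. Among barcodes with 10 to 25% insulin (53 in WT and 37 in GKO), 8 of 37 members were at least 1.2-fold higher in GKO, beside 28.5% of all genes, and 8 lower, beside 24.2%. At 25 to 45% (309 and 121 barcodes), 8 of 37 were higher, beside 18.4%, and 1 lower, beside 11.2%. At 45 to 60% (633 and 267 barcodes), 10 of 38 were higher, beside 11.7%, and 3 lower, beside 9.1%. Above 60% (1270 and 447 barcodes), 12 of 38 were higher, beside 7.63%, and 3 lower, beside 9.88%. In the lowest range the members' counts thus stood near the background, and above 45% the share of members higher in GKO was over that of all genes. The background genes were not matched to the members in level. Non-insulin UMIs were 1125255 in WT and 887396 in GKO in the lowest range, and 17639280 and 6292184 in the highest. The part of counting error in these shares was not tested. Without barcodes of a second hormone at 5% or more, the lowest range kept 23 WT and 17 GKO barcodes, the next 179 and 70, and the highest 1269 and 447.
Sdf2l1 was higher in GKO in each of the 4 ranges, with log2 ratios of 0.50, 0.55, 0.43 and 0.48. Dnajc3 was likewise higher in each, at 0.31, 0.47, 0.28 and 0.38. Creld2 was lower in GKO in the lowest range (-0.24, interval -0.79 to 0.29, from 75 and 50 UMIs) and higher in the other ranges, at 0.49, 0.37 and 0.54. Herpud1 was lower in GKO in each range, at -0.56, -0.30, -0.40 and -0.43.

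Within each genotype the members were more abundant in barcodes richer in insulin. Summed over the members, their share of non-insulin UMIs was 0.988%, 1.19%, 1.63% and 2.21% across the 4 ranges in WT and 1.08%, 1.32%, 1.83% and 2.53% in GKO. In both libraries 28 of the 39 members were higher at each step from range to range, beside 13.6% of all 8500 genes. Between barcodes with more than 60% insulin and those with 25 to 45%, 29 members were at least 1.5-fold higher in both libraries, and 12 at least 2-fold. Of the 38 members of at least 10 CPM these were 28 and 12, beside 8.38% and 2.41% of all genes. The median ratio of the members was 1.77 in WT and 1.78 in GKO, and that of all genes was 1.11 and 1.06. Insulin share and depth moved together. Among barcodes of 10000 to 40000 UMIs 16 members were 1.5-fold higher in both libraries, beside 5.26% of all genes. At that depth 3 members were at least 2-fold higher and 24 were higher at each step, beside 130 and 682 of all 8500 genes. Removing barcodes with a second hormone at 5% or more, which lay mostly below 45% insulin, left 20 of the 38 members of at least 10 CPM. This stood beside 5.76% of all genes.
Derl3 had the steepest relation, from 7.70 CPM at 25 to 45% insulin to 48.3 CPM above 60% in WT, and from 8.61 to 65.3 CPM in GKO. Ero1lb went from 493 to 1903 CPM in WT and from 449 to 1987 CPM in GKO. Sdf2l1 went from 216 to 604 CPM in WT and from 315 to 841 CPM in GKO. Manf went from 601 to 1417 CPM in WT and from 749 to 1756 CPM in GKO, and Pdia6 from 570 to 1367 CPM and from 655 to 1642 CPM.
Hspa5 had a shallower relation than these, from 1229 to 1740 CPM in WT and from 1378 to 2142 CPM in GKO. These levels of single genes are over barcodes of all depths. Among barcodes of 10000 to 40000 UMIs the ratio was 1.17 in WT and 1.19 in GKO for Hspa5. For Manf it was 1.90 and 1.85 there, for Ero1lb 3.92 and 4.27, and for Herpud1 0.928 and 0.886. Ratios of Herpud1 (1.14 in WT and 1.04 in GKO), Ern1 (1.14 and 1.05), Xbp1 (1.29 and 1.23) and Ddit3 (1.28 and 0.978) stayed below 1.5 in both libraries. So did those of Canx (1.49 and 1.31) and Ero1l (1.34 and 1.39). The regulators Atf6 (1.51 and 1.38) and Eif2ak3 (1.57 and 1.29) stayed below it in GKO only. Atf4, in contrast, was 1.77-fold and 1.52-fold higher.

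**Figure D3:**
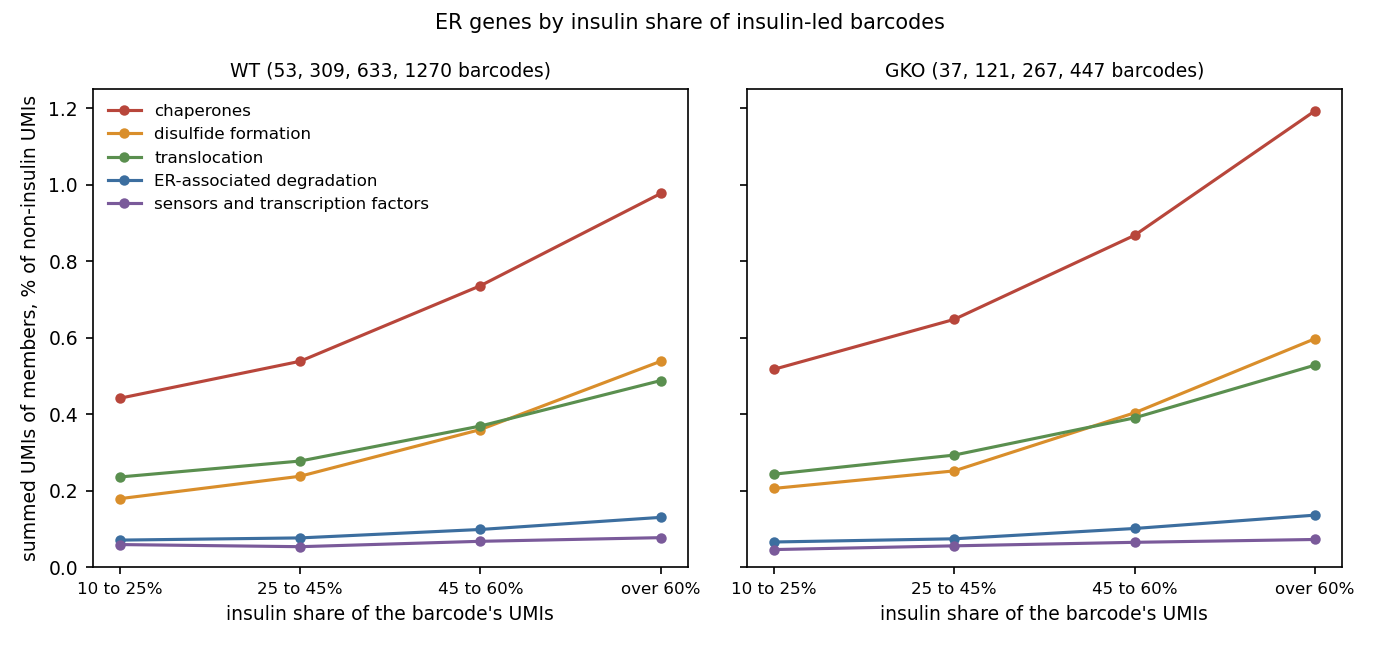
Summed UMIs of the members of each role as a percentage of non-insulin UMIs (vertical axis) in 4 ranges of the barcode's insulin share (horizontal axis), for WT (left) and GKO (right), with the number of barcodes in each range above. Chaperones went from 0.442% to 0.978% in WT and from 0.518% to 1.19% in GKO, and sensors and transcription factors stayed below 0.1%.

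Barcodes also differed among themselves at equal depth. After each insulin-led barcode was thinned to 5000 non-insulin UMIs, the 11 chaperones together gave a median of 39 UMIs per barcode in WT (10th to 90th percentile 22 to 63, 2239 barcodes) and 46 in GKO (25 to 74, 867 barcodes), so that the distributions overlapped widely. Above 60% insulin the medians were 46 and 57. Over all insulin-led barcodes the variance of the chaperone UMIs was 6.56 times their mean in WT and 7.63 times in GKO. Counting error alone would make the variance equal to the mean, so the counting intervals are narrower than the spread between barcodes would give. Barcodes are not replicates, and these values describe their spread.
In those barcodes above 60% insulin, those at or above the upper quartile of Hspa5 UMIs were set beside those at or below the lower quartile. With ties these were 348 and 346 barcodes in WT and 138 and 152 in GKO. Their median insulin shares were near equal (66.1% and 66.3% in WT, 65.8% and 65.2% in GKO). Their depth before thinning was not matched. Of the 38 other members, 34 were higher in the Hspa5-rich barcodes in both libraries, and for 25 the interval was above 0 in both, beside 29.3% and 2.59% of all 8499 genes of at least 10 CPM. The median log2 ratio was 0.52 in WT and 0.42 in GKO, and that of all genes was 0.02 and -0.03. Creld2 was at 134 CPM in Hspa5-poor and 276 CPM in Hspa5-rich WT barcodes (1.05), and at 178 and 354 CPM in GKO (0.99). Sdf2l1 had ratios of 0.97 and 0.82, and Derl3 of 1.10 and 1.16. Herpud1, lower in GKO than in WT, was nevertheless higher in Hspa5-rich barcodes of each library (0.48 and 0.73). Canx (0.10 and 0.04) and Xbp1 (0.05 and -0.19) had intervals that held 0.

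In the other hormone classes the chaperones lay near or below an equal level between libraries, with a median log2 ratio over the 11 of -0.01 in Gcg-led, -0.13 in Sst-led and -0.04 in Ppy-led barcodes, beside 0.30 in insulin-led barcodes on the same scale of CPM over all UMIs. Whether these differ between classes was not tested. RNA carried over from other cells was not removed from the counts of any class. Insulin-led barcodes held 89046751 UMIs in WT and 32807829 in GKO, so carried-over β cell transcripts may be unequal between the libraries. Their part in the ratios of the other hormone classes and of nonendocrine barcodes was not tested. In Gcg-led barcodes 1 of 36 members was at least 1.2-fold higher, beside 9.08% of all genes, and 1 lower, beside 5.28%, and the median of the members was -0.01 beside 0.05 for all genes. The higher member was Atf4, at 94.7 CPM in WT and 136 CPM in GKO (0.53, interval 0.43 to 0.62), a direction opposite to that in insulin-led barcodes. Pdia4 (0.22) and Creld2 (0.20) followed, and Eif2ak3 (-0.27), Herpud1 (-0.16) and Ssr4 (-0.15) were lowest. Hspa5 was at 669 and 662 CPM (-0.02), Manf at 306 and 301 CPM (-0.03), Dnajc3 at 174 and 197 CPM (0.18), Xbp1 at 139 and 147 CPM (0.08) and Ddit3 at 31.2 CPM in both. Trib3 (15 and 14 UMIs), Derl3 (24 and 34 UMIs) and Edem1 (137 and 145 UMIs) were under 10 CPM.
In Sst-led barcodes 0 of 37 members were at least 1.2-fold higher, beside 7.84% of all genes, and 3 lower, beside 6.4%, with a median of -0.11 beside 0.03 for all genes. These barcodes hold the δ cells that carry the ghrelin receptor. The lowest were Ern1, at 66.1 CPM in WT and 51.2 CPM in GKO (-0.37), Syvn1, at 19.7 and 15.3 CPM (-0.37), and Eif2ak3 (-0.28, interval -0.61 to 0.04). Ddit3 (0.10), Ssr2 (0.08) and Sdf2l1 (0.06) were the highest. Manf was at 369 CPM in WT and 316 CPM in GKO (-0.22, interval -0.28 to -0.16), and Hspa5 at 966 and 854 CPM (-0.18, interval -0.22 to -0.14), both below the direction seen in insulin-led barcodes. Dnajc3 (0.01), Xbp1 (-0.06) and Atf4 (-0.08) were nearer to 0. Of barcodes with Sst at 25% or more of UMIs, 5 of 37 members were higher and 12 lower, beside 25.9% and 21.7% of all genes in that smaller set. Derl3 (36 and 6 UMIs) and Trib3 (5 and 6 UMIs) were under 10 CPM.
In Ppy-led barcodes 1 of 36 members was at least 1.2-fold higher, beside 8.38% of all genes, and 4 lower, beside 4.46%, with a median of -0.02 beside 0.06 for all genes. Hspa5 was at 1312 CPM in WT and 1009 CPM in GKO (-0.38, interval -0.41 to -0.35). Ddit3 was at 52.5 and 40.0 CPM (-0.39), Syvn1 at 15.8 and 12.3 CPM (-0.36), and Sec61a1 at 78.9 and 65.2 CPM (-0.28). Creld2 was higher, at 31.0 and 37.3 CPM (0.27, interval 0.10 to 0.44), followed by Pdia4 (0.14) and Dnajc3 (0.13), while Manf (-0.17), Xbp1 (0.03) and Atf4 (0.06) stayed within the limit. Of the 11 chaperones, Creld2 and Hspa5 were thus the ones past the limit, in opposite directions. Derl3 (70 and 36 UMIs), Trib3 (23 and 15 UMIs) and Edem1 (117 and 115 UMIs) were under 10 CPM.
In nonendocrine barcodes 0 of 37 members were at least 1.2-fold higher, beside 17.7% of all genes, and 7 lower, beside 13.9%, with a median of -0.05 beside 0.01 for all genes. Creld2 was at 55.1 CPM in WT and 40.1 CPM in GKO (-0.46), Ero1lb at 23.6 and 17.6 CPM (-0.42), and Edem1 at 48.2 and 36.7 CPM (-0.39). Ssr3 (0.17), Pdia4 (0.09) and Os9 (0.07) were the highest. Hspa5 (0.07), Ddit3 (0.06), Dnajc3 (-0.04), Xbp1 (-0.05), Atf4 (-0.13) and Manf (-0.22) lay within the limit. Derl3 (195 and 78 UMIs) and Trib3 (99 and 85 UMIs) were under 10 CPM. The cell types in this class were present in different numbers in the libraries, so that their mixture moves with these values.

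**Figure D4:**
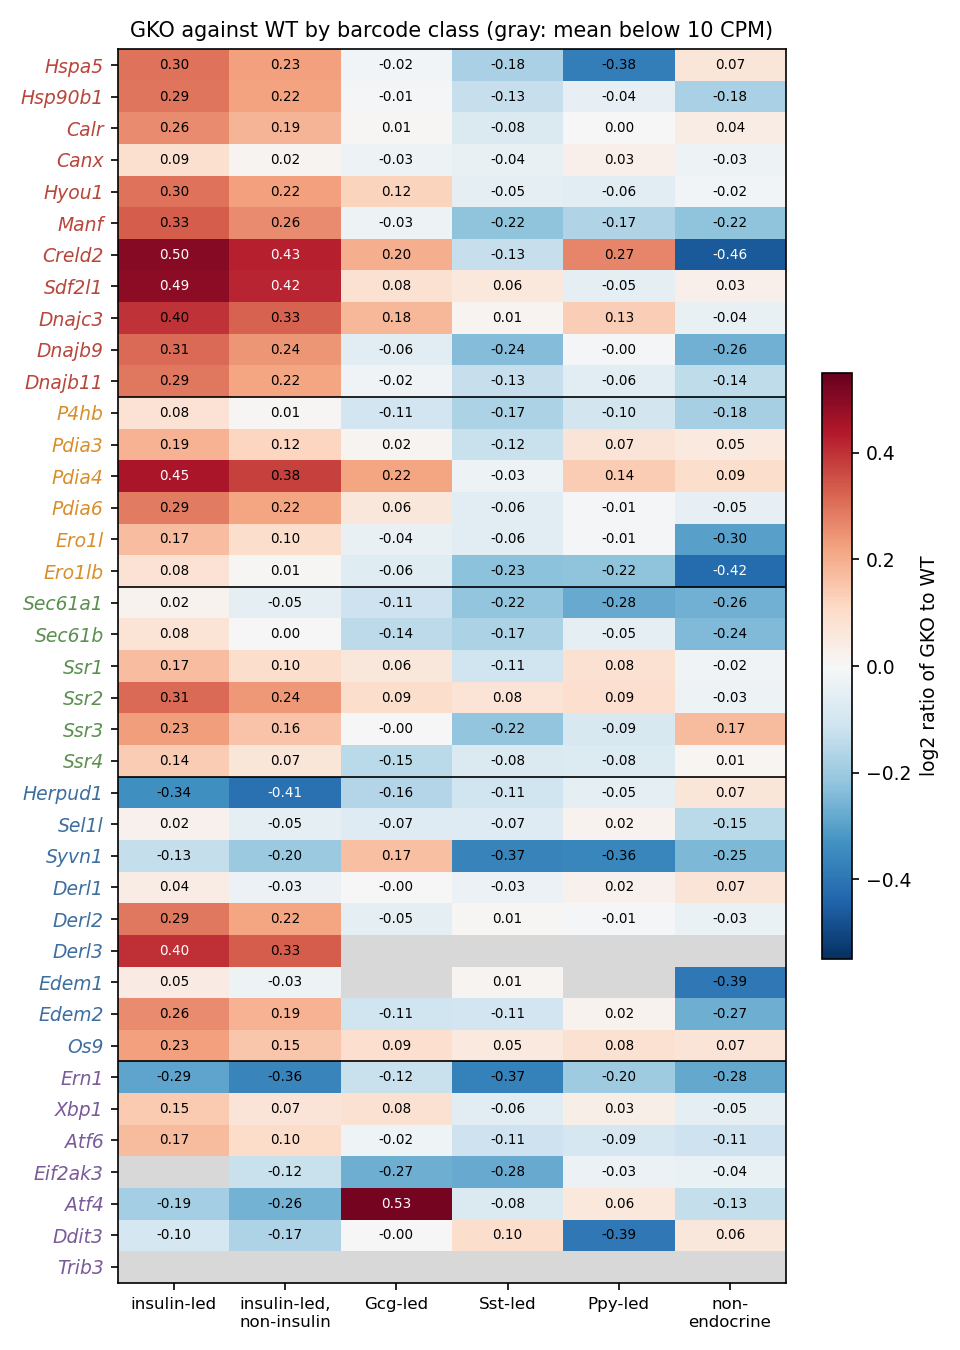
Log2 ratio of GKO to WT for each member (rows, colored by role) in the 5 barcode classes and in insulin-led barcodes over non-insulin UMIs (columns), red where higher in GKO, blue where lower and gray where the mean was below 10 CPM. The chaperones at the top run from 0.09 to 0.50 in insulin-led barcodes over all UMIs and from -0.24 to 0.06 in Sst-led barcodes.

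Nonendocrine barcodes were split by leading marker list, which needed 3 detected markers, 5 UMIs and 2 times the UMIs of the next list. This left 5 marker-led groups of at least 50 barcodes in each library and a remainder with no leading list. With endothelial markers (574 WT and 432 GKO barcodes) 2 of 36 members were at least 1.2-fold higher, beside 16.2% of all genes, and 4 lower, beside 11.2%. With activated stellate markers (264 and 590) it was 1 of 36, beside 26.8%, and 7, beside 15.4%. With quiescent stellate markers (190 and 378) it was 4 of 35, beside 23.7%, and 4, beside 21.2%. With macrophage markers (202 and 451) it was 1 of 35, beside 26.1%, and 6, beside 15.9%. In these 4 groups the counts of members were near or below the background, except that 6 of 35 and 7 of 36 lower members stood slightly above it. As in the ranges of insulin share, the background genes of the marker-led groups were not matched to the members in level.
With ductal markers (59 and 85 barcodes) 14 of 36 members were higher, beside 35.9% of all genes, and 7 lower, beside 19.5%, both near the background. Hspa5 there was at 932 CPM in WT and 1662 CPM in GKO (0.83, interval 0.73 to 0.94). Hspa5 was lower in GKO with activated stellate markers, at 1307 and 1036 CPM (-0.33), and with quiescent stellate markers, at 858 and 628 CPM (-0.45).
The remainder with no leading list (235 WT and 331 GKO barcodes, with 5.91% and 5.73% hormone UMIs) stood furthest from its background. There 1 of 38 members was higher, beside 21.8% of all genes, and 19 lower, beside 20.7%, with a median of -0.27 beside -0.01 for all genes. Among its barcodes under 5% hormone UMIs 29 of 38 were lower, beside 28.5% of all genes. Manf was at 421 CPM in WT and 274 CPM in GKO (-0.62, interval -0.74 to -0.50), and Hspa5 at 1184 and 1068 CPM (-0.15). Of the members under no naming rule here, those furthest apart were picked after their values were seen, Derl3 at 28.4 and 2.96 CPM (86 and 11 UMIs) and Creld2 at 104 and 42.8 CPM. Which cells these barcodes hold is not given by the marker lists.
The highest level of each member was also read over the 5 marker-led groups. Hspa5 was highest with macrophage markers in both libraries, at 2625 CPM in WT and 2434 CPM in GKO. In both libraries, 16 members were highest with activated stellate markers, 7 with macrophage, 6 with ductal and 3 with endothelial markers. The share of all genes highest in each group was not computed, so these counts do not set the members apart from other genes.

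Across the classes, levels are given as CPM over non-hormone UMIs. Insulin-led barcodes had the highest level of the 4 hormone classes in both libraries for 33 of the 39 members, and for 32 of the 38 members of at least 10 CPM, beside 24.6% of all 8774 genes. In 18 of the 38 the level was at least 1.5-fold above each other hormone class in both libraries, beside 4.65% of all genes, and in 10 at least 2-fold, beside 1.89%. With each barcode thinned to 5000 UMIs the count was 29. Over all UMIs, of which insulin takes more than any other hormone, it was 13, and Sst-led barcodes were highest for 13 as well. When nonendocrine barcodes were included on that scale, they were highest for 12 members and insulin-led barcodes for 10. The share of all genes was not computed for these settings.
Ero1lb stood apart, at 1408 CPM in WT and 1412 CPM in GKO in insulin-led barcodes and 86.4 and 82.9 CPM in Gcg-led barcodes, the next hormone class, a ratio of 16.3 and 17.0. Sdf2l1 was 4.61-fold and 6.36-fold above the next class, Hyou1 3.14-fold and 3.36-fold, and Edem1 2.95-fold and 2.88-fold. Derl3 was at 32.2 and 40.5 CPM in insulin-led barcodes and at most 6.42 CPM in another hormone class.
Other members stood close across the hormone classes. Ero1l was 1.07-fold and 1.19-fold above Sst-led barcodes, the next class. Dnajb9 was 1.10-fold and 1.32-fold above Ppy-led barcodes.
Of the exceptions, Herpud1 was highest in Sst-led barcodes, at 315 CPM in WT and 291 CPM in GKO against 242 and 181 CPM in insulin-led barcodes. Ern1 was likewise highest in Sst-led barcodes, at 85.2 and 65.6 CPM. Xbp1 was highest in Ppy-led barcodes, at 311 and 313 CPM, and so was Ddit3, at 83.1 and 62.3 CPM. For Hspa5 and Atf4 the order differed between the libraries. Hspa5 in Ppy-led barcodes was at 2077 CPM in WT and 1573 CPM in GKO, and in insulin-led barcodes at 1617 and 1887 CPM. Atf4 in insulin-led barcodes was at 235 and 196 CPM, and in Ppy-led barcodes at 201 and 205 CPM.

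**Figure D5:**
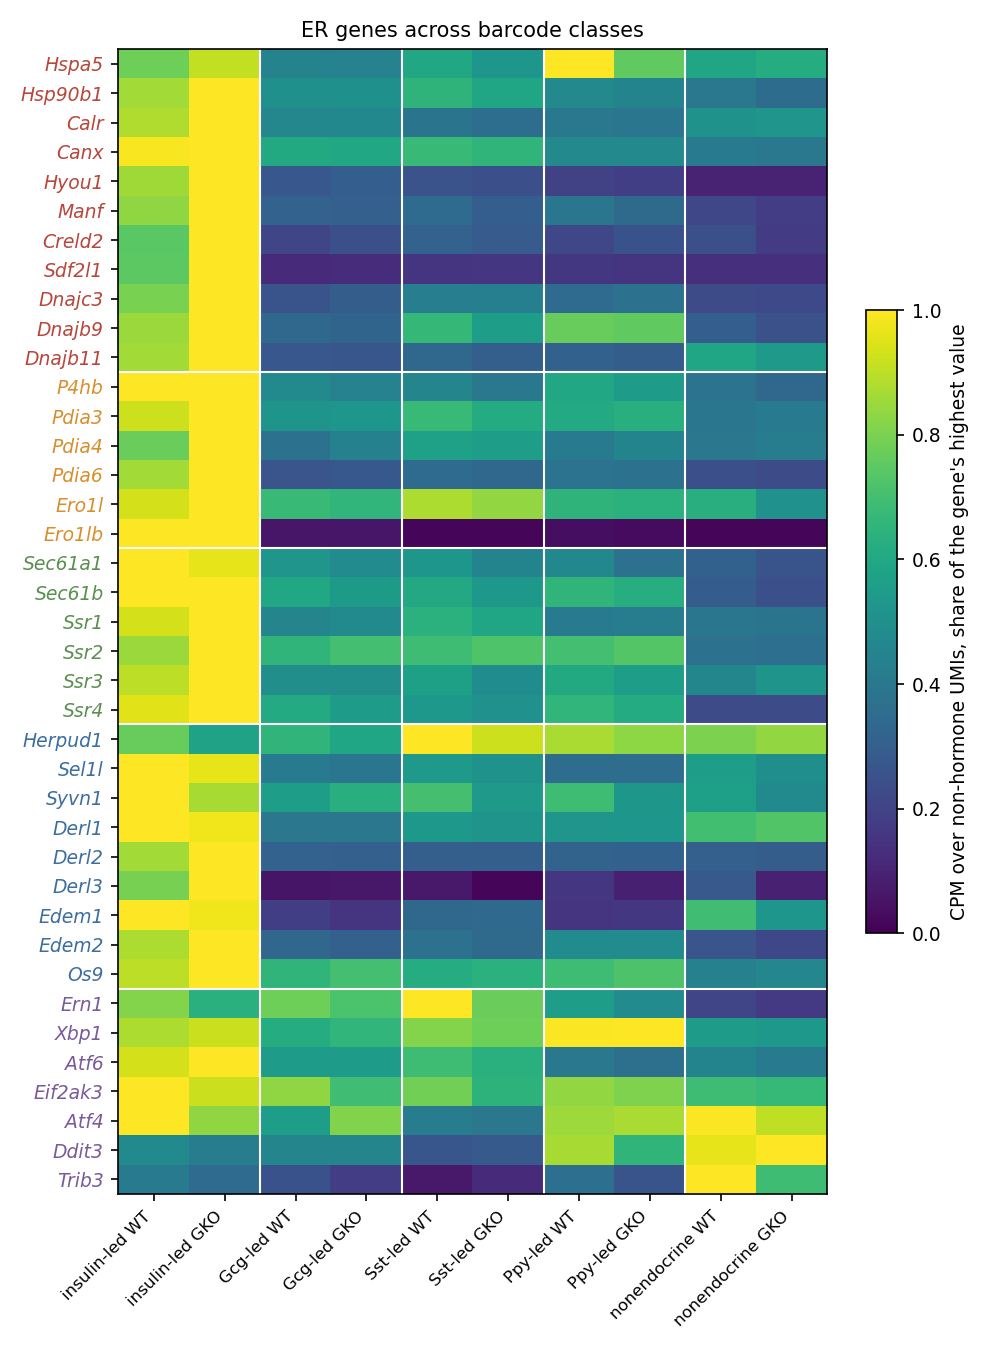
CPM over non-hormone UMIs of each member (rows) in 5 barcode classes of each library (columns), as a share of that gene's highest value (color scale from 0 to 1). Most rows peak in the insulin-led columns. The chaperone gene Hspa5, the regulators Xbp1, Ern1, Ddit3 and Trib3 and the ERAD gene Herpud1 peak elsewhere.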

How the data were processed

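The deposited tables hold raw UMI counts per gene and barcode, made by the authors with Cell Ranger 5.0.1 (file header) against mm10 (submitters' processing notes), after reads were brought to similar depth between samples. Ambient RNA removal was not applied to these counts, and no doublets were removed here. Barcodes under 500 genes or over 10% mitochondrial UMIs were left out, and the rest were placed by leading hormone (10% or more of UMIs of Ins1 plus Ins2, Gcg, Sst or Ppy). UMIs were summed per library and class and scaled to CPM over all, non-insulin or non-hormone UMIs. With 1 library per genotype, ratios carry exact 95% counting intervals and no test, and a gene needed a mean of 10 CPM to be compared. Calculations ran in pandas 2.3.3, scipy 1.17.1 and numpy 2.4.6 under Python 3.11.15, with TMM factors from edgeR 4.0.16 (R 4.3.3), and were tested on simulated data. Promoter windows came from RefSeq (GRCm38.p6) and gene models from GENCODE vM21. Members and lists were chosen with earlier results of these data known. All members could be named in insulin-led barcodes, elsewhere the 3 highest and 3 lowest plus Manf, Dnajc3, Hspa5, Xbp1, Atf4, Ddit3 and Trib3, and in each other list the 2 highest and 2 lowest. Alternatives changed the filter, hormone share, scaling, barcode weight, depth, second-hormone barcodes and minimum level.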

Additional observations from a re-analysis of the deposited data

Results flagged for a closer look

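For 3 members the GKO to WT ratio over all UMIs passed 1.2-fold in opposite directions in different barcode classes, with 1 library per genotype, so these differences between classes were not tested. Hspa5 had a log2 ratio of 0.30 in insulin-led barcodes and -0.38 in Ppy-led barcodes. Creld2 had a log2 ratio of 0.50 in insulin-led and 0.27 in Ppy-led barcodes, against -0.46 in nonendocrine barcodes. Dnajb9 had a log2 ratio of 0.31 in insulin-led barcodes and -0.26 in nonendocrine barcodes. Over non-insulin UMIs the insulin-led ratios were 0.23 for Hspa5 and 0.24 for Dnajb9, both short of 1.2-fold, and 0.43 for Creld2, so that the calls for Hspa5 and Dnajb9 rest on the scale of all UMIs.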

How the results depend on the processing

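Of 35 named values past 1.2-fold, 30 kept their sign under every alternative, and 5 turned direction under 1 alternative. Of 83 named values short of 1.2-fold, 36 changed sign under at least 1 alternative. Of 187 counts of members under the alternatives, 142 stayed within 1.5 times the main count. No paired analysis was possible because each genotype has 1 library and no test was made, and for the same reason no replicate could be left out. The alternatives on hormone share and second hormone could not be applied to nonendocrine barcodes. The causes of the changes below were not tested. In insulin-led barcodes over all UMIs, the 14 members 1.2-fold or more higher in GKO became 5 without hormone genes in the total, 5 with TMM and 5 with the median of ratios. Without hormone genes in the total, 5.37% of all genes were higher. TMM moved the median of all genes by -0.10 and left 2.90% of all genes higher and 5.34% lower, and the median of ratios left 3.00% and 5.26%. The 2 lower members became 1 without a filter on barcodes, beside 2.96% of all genes, and 1 at a minimum of 50 CPM, beside 5.36%. Derl3 was at -0.0090 when thinned to 5000 UMIs. Over non-insulin UMIs, the 5 higher members became 9 without barcodes of a second hormone, beside 5.94% of all genes. They became 8 at 10000 to 40000 UMIs, beside 8.11%, and 9 when thinned, beside 15.7%. In the 4 ranges of insulin share from low to high they were 8, 8, 10 and 12, beside 28.5%, 18.4%, 11.7% and 7.63%. The 2 lower members became 5 when thinned, 8 at 10 to 25% insulin and 1 at 25 to 45%. The shares of all genes there were 14.3%, 24.2% and 11.2%. Creld2 turned to -0.24 at 10 to 25% insulin and Derl3 to -0.078 when thinned. Herpud1 stayed 1.2-fold or more lower, and Sdf2l1 and Dnajc3 1.2-fold or more higher, under every alternative on this scale. In Gcg-led barcodes, the 1 higher member became 2 at 25% Gcg, beside 14.9% of all genes, and 2 when thinned, beside 14.1%. The 1 lower member became 0 without a filter, at 25% Gcg, at 10000 to 40000 UMIs and at 50 CPM. The shares of all genes there were 5.24%, 6.04%, 5.59% and 5.38%. It became 2 without hormone genes (5.72%), 2 without ribosomal protein and mitochondrial genes (5.94%) and 3 with no minimum (19.1%). Eif2ak3 was at 0.0032 at 25% Gcg. In Sst-led barcodes, the 0 higher became 5 at 25% Sst, beside 25.9% of all genes, and 1 with no minimum, beside 21.8%. The 3 lower became 12 at 25% Sst (21.7% of all genes), 6 when thinned (9.25%) and 1 at 50 CPM (5.71%). Eif2ak3 was at 0.028 at 25% Sst. In Ppy-led barcodes, the 1 higher became 0 without a filter, when thinned, without hormone genes, with TMM, with the median of ratios and at 50 CPM. The shares of all genes there were 8.29%, 17.4%, 8.23%, 4.63%, 4.61% and 4.41%. The 4 lower became 2 at 50 CPM, beside 5.02%. In nonendocrine barcodes, the 0 higher became 1 when thinned, beside 17.5% of all genes. The 7 lower became 3 without a filter (11.9991% of all genes), 4 with equal weight of barcodes (18.6%) and 1 at 50 CPM (13.3%). The 33 members highest in insulin-led barcodes became 13 when all UMIs formed the total, and Sst-led barcodes were then highest for 13 as well. The 29 members 1.5-fold higher above 60% insulin became 16 at 10000 to 40000 UMIs, beside 5.26% of all genes. With macrophage markers the 1 higher member became 0 in barcodes under 5% hormone UMIs, beside 29.0% of all genes. With no leading marker list, the 1 higher and 19 lower members became 0 and 29 in such barcodes, beside 27.4% and 28.5% of all genes.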

Other observations

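A few nonendocrine barcodes carried mostly plasma cell markers, 9 in WT and 10 in GKO, of which 3 of 6 listed markers were among the genes of the tables. Plasma cells secrete antibodies in large amounts. The genes named here were chosen after their values were seen, levels are CPM over all UMIs, and the libraries were not compared in so few barcodes. Derl3 stood at 350 CPM in WT and 470 CPM in GKO, from 55 and 48 UMIs. Edem1 stood at 1037 and 969 CPM, and Xbp1 at 1158 and 1468 CPM. In nonendocrine barcodes as a whole Derl3 was at 11.1 CPM in WT and 3.57 CPM in GKO, Edem1 at 48.2 and 36.7 CPM, and Xbp1 at 169 and 163 CPM. The plasma cell marker barcodes held 55 of the 195 WT and 48 of the 78 GKO Derl3 UMIs of that class.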
